A study of Homo sapiens with 6 samples.

Results

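The IGF-binding protein genes IGFBP1 to IGFBP7, the receptor genes IGF1R and IGF2R and the receptor substrate gene IRS1 were followed in PC3, an established human prostate cancer cell line. They were taken by gene symbol from the array's platform annotation. Of these 10 genes, 9 had a named probe, with 10 probes between them out of 24526 on the array, and IGFBP1 had no probe named here. The 9 genes stand among 16922 named genes in all. The 6 Illumina HumanRef-8 v3 BeadChip arrays comprise 3 of PC3 cells expressing green fluorescent protein (GFP), the control, and 3 of PC3 cells expressing the receptor kinase GRK3, with all cells grown in RPMI medium with serum and antibiotics. The question of the series is which genes respond to GRK3 here. The sources used here give neither the promoter driving each transgene nor whether a group is a clone or a pool. Separate cultures for the arrays of a group are not stated either, so spreads and p-values cover these samples, which may be technical replicates.

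Insulin-like growth factors (IGFs) are secreted peptides that act through IGF1R, a receptor tyrosine kinase that phosphorylates the adaptor IRS1 and so couples to PI3-kinase and AKT. IGF-binding proteins hold IGFs outside the cell, which can keep them from the receptor or carry them to it, and some also act without IGFs. IGF2R, the cation-independent mannose 6-phosphate receptor, takes IGF2 to lysosomes and has no kinase of its own.

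The members were chosen by family name, with the measured GRK3 minus GFP differences already known, that of IGFBP5 and its detection p-values among them. The differences of the members in that comparison are therefore given as descriptions. Of the 10 probes, 7 were detected on at least 3 of the 6 arrays and entered the fit, covering 6 genes, while the probes of IGFBP2, IGFBP7 and IGF1R were detected on 0 arrays. A probe counted as detected on an array when the deposited detection p-value, which ranks its signal among negative control probes, was under 0.05. Levels below are either the deposited bead signal, linear and not normalized, or normalized log2 values, and differences are GRK3 minus GFP on that log2 scale. Levels of different probes are not set against each other, because probes differ in how brightly they report an RNA.

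**Figure D1:**
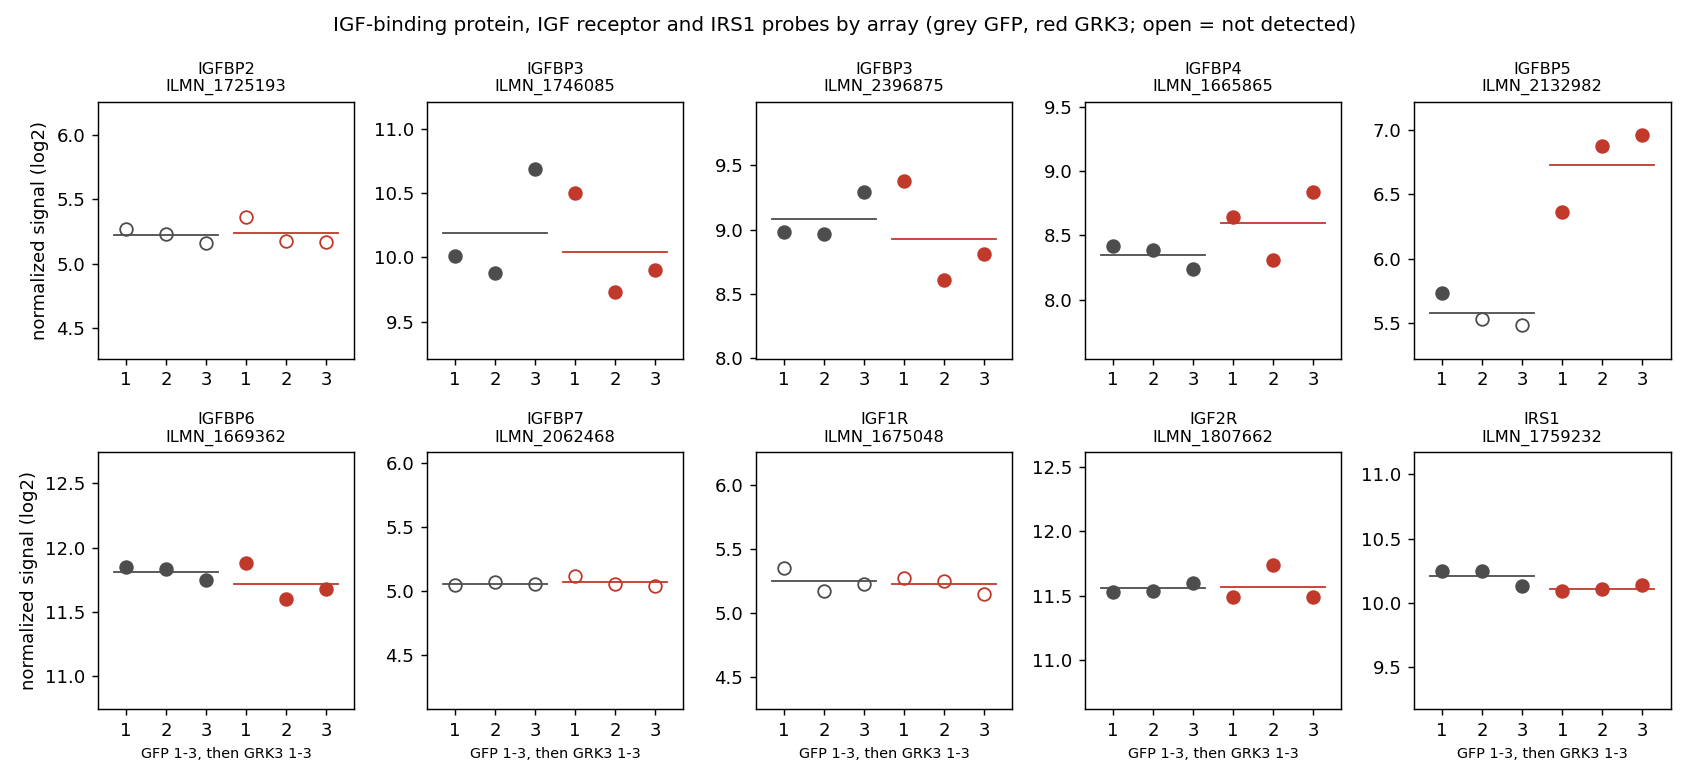
Normalized log2 signal (y axis) of each of the 10 probes on the 3 GFP arrays (grey) and the 3 GRK3 arrays (red), each panel spanning the same height in log2. Filled points are detected, open points are not, and lines are group means. IGFBP5 is the probe whose groups do not overlap, from 5.48 to 5.73 in GFP and from 6.36 to 6.96 in GRK3.

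The arrays had mean signals from 1171 to 1387, and on each 56.2% to 58.6% of probes were detected. The epithelial markers KRT8, KRT18, EPCAM and CDH1 (4 of 4) were detected on all 6 arrays, and KLK3, which encodes prostate-specific antigen, on 0. Of 6 fibroblast markers, COL1A2, COL3A1 and DCN were detected on 0 arrays, PDGFRB on 2 GFP and 0 GRK3 arrays, and COL1A1 and LUM on all 6, with signals from 112.4 to 132.6 and from 108.3 to 138.9. LUM differed by 0.29 (limma adjusted p = 0.412). Of 4 endothelial markers, CDH5, VWF and TEK were detected on 0 arrays and PECAM1 on all 6, with signals from 751.2 to 1001 and a log2 difference of 0.21 between groups that do not overlap (limma adjusted p = 0.462). The part of these genes in the results below was not tested. The leukocyte markers PTPRC and CD3E were detected on 0 arrays and CD14 on 3 GFP and 2 GRK3 arrays. The summed signal of the fibroblast list ran from 515 to 581 on GFP arrays and from 524 to 583 on GRK3 arrays, that of the endothelial list from 964 to 1229 and from 1056 to 1196, and that of the 3 leukocyte genes with a probe from 264 to 277 and from 252 to 280. The GRK3 probe itself was detected on 0 arrays, with detection p-values from 0.104 to 0.262, so it does not check the labels.

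IGFBP5, which encodes a binding protein held in the extracellular matrix, was the member with the large difference, and it lay near the detection limit in the control cells. Its deposited signal was 98.1, 99.2 and 95.5 in GFP cells and 139.6, 185.8 and 168.9 in GRK3 cells. The detection p-values were 0.0485, 0.0841 and 0.0874 in GFP cells and 0.0291, 0.0129 and 0.0162 in GRK3 cells. It was therefore detected on 1 of 3 GFP arrays, barely, and on 3 of 3 GRK3 arrays, and each GRK3 array lay above every GFP array. The lowest signal that counted as detected was 96.7, 112 and 112.4 in GFP cells and 102.9, 114.8 and 101.6 in GRK3 cells. IGFBP5 stood at 1.01, 0.886 and 0.849 times that limit in GFP cells and at 1.36, 1.62 and 1.66 times in GRK3 cells.

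**Figure D2:**
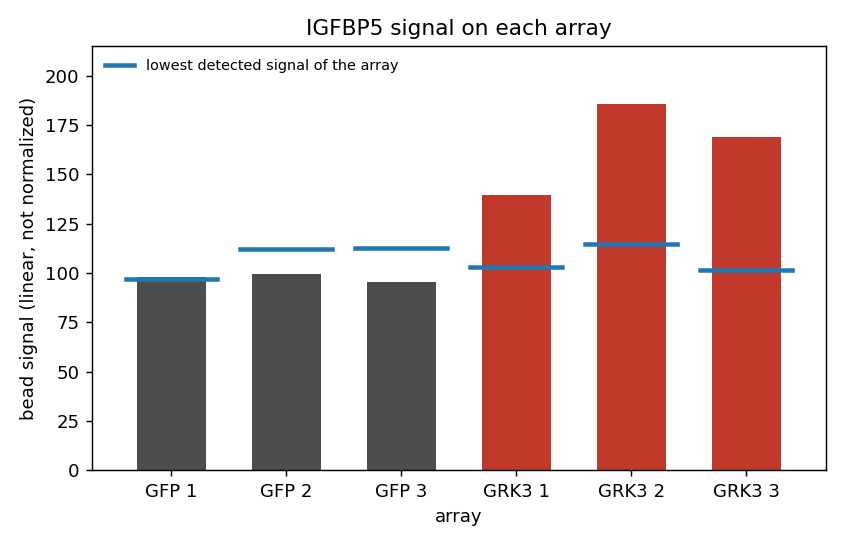
Deposited, not normalized bead signal of IGFBP5 (bars, linear y axis from 0) on each GFP (grey) and GRK3 (red) array, with the lowest signal that counted as detected on that array (blue line). The bars of GFP replicates 2 and 3 end below their line, and the 3 GRK3 bars, from 139.6 to 185.8, end above theirs.

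After background correction and normalization the log2 values of IGFBP5 were 5.73, 5.53 and 5.48 in GFP cells and 6.36, 6.88 and 6.96 in GRK3 cells. GRK3 replicate 1 was the lowest of its group. The means were 5.58 ± 0.14 and 6.73 ± 0.32 (SD, n = 3 each), a difference of 1.15 ± 0.15 (SE) with a 95% interval from 0.81 to 1.5. The size depends on how background is treated: the ratio of the mean deposited signals was 1.69, against 2.22-fold after background correction, and the log2 difference without background correction was 0.76 ± 0.11 (SE). With 2 GFP arrays under the detection limit, the GFP level is close to a floor, and these sizes carry that uncertainty. In the limma fit over all 14130 tested probes IGFBP5 had an adjusted p of 0.0113, a value known when the family was chosen. It met the detection filter of that fit only through the GRK3 group, where it is high, so the value is a description. With no detection filter the limma adjusted p was 0.0758. Leaving out 1 array from the main fit ended the call in 3 of 6 cases. The limma adjusted p was then 0.0978 (GFP replicate 2 left out), 0.0508 (GFP replicate 3) or 0.0798 (GRK3 replicate 2). Across the alternatives tried it ran from 0.000862 to 0.118.

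Among the 7 tested member probes, IGFBP5 was the 1 that passed, on the higher side, and 6 did not pass, against 0.573% of all tested probes in either direction, 0.375% higher in GRK3 cells and 0.198% lower. It was also the 1 member probe whose groups did not overlap, a separation seen for 16.4% of all tested probes. The median difference was -0.09 over the 7 member probes and -0.01 over all tested probes. Since the comparison was known when the genes were chosen, nothing is read from these shares.

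The DNA just upstream of IGFBP5 and of IGFBP3 is shown because these are the members that differed most between the groups and between arrays of a group. Both sequences are the 250 bases before the annotated start, 5′ to 3′, from RefSeq on GRCh38.p14. IGFBP5 lies at chr2:216695550-216695799 and IGFBP3 at chr7:45921273-45921522, both on the minus strand. Capitals mark matches on either strand to any of 4 motifs. TATNNA stands for a TATA-like element and CCAAT for the box of that name. GGGCGG is the GC box, and the forkhead element was searched as GTAAACA.
IGFBP5: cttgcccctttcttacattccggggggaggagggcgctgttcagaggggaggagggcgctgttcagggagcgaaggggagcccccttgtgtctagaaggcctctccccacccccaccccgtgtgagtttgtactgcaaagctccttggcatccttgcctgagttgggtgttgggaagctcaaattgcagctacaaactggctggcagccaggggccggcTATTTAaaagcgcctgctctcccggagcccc
IGFBP3: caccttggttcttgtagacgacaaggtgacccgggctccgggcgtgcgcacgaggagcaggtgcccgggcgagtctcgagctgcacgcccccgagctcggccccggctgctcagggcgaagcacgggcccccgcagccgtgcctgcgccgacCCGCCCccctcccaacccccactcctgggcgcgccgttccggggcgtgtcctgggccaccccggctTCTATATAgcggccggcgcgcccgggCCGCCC

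The TATA-like match of IGFBP5 begins 31 bases before the start and that of IGFBP3 begins 30 bases before it, each on the sense strand. In IGFBP3 it overlaps 2 matches of the same letters on the other strand, which makes the longer run of capitals. A sense-strand TATNNA beginning 40 to 20 bases before the start was present in 6.42% of 35116 RefSeq promoters, and among the 10 entries of 8 members it was present for IGFBP3, IGFBP4 and IGFBP5. GGGCGG occurred 2 times upstream of IGFBP3 and 0 times upstream of IGFBP5, and 42.6% of all promoters hold it. CCAAT and GTAAACA had no match in either sequence, and 32.0% and 2.98% of all promoters hold them. The 250 bases were 61.2% G or C for IGFBP5 and 76.0% for IGFBP3, with a median of 58.0% over all promoters. IRS1, IGF2R and IGF1R had 80.8%, 79.2% and 81.2%. The letters were chosen with the sequences in view, and a match is a description, not a binding site.

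IGFBP5 and IGFBP2 are next to each other on chromosome 2 in the RefSeq gene table, with 0 genes between them, and IGFBP1 and IGFBP3 are likewise neighbours on chromosome 7. The deposited signal of IGFBP2, which encodes a binding protein abundant in prostate cancers, was 72.1, 80.1 and 73.0 in GFP cells and 86.2, 75.8 and 69.4 in GRK3 cells. Its detection p-values lay between 0.142 and 0.382. The groups overlap and every value is below the detection limit, so at the single IGFBP2 probe no level was measured in either group while its neighbour IGFBP5 was detected in GRK3 cells.

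IGFBP3, which encodes the main IGF carrier of the blood, was detected on all 6 arrays at both of its probes and varied more between arrays of a group than between groups. At probe ILMN_1746085 its signal was 1014.8, 1027.5 and 1871.2 in GFP cells and 1495, 959.6 and 901.8 in GRK3 cells. At probe ILMN_2396875 it was 526.4, 586.3 and 746.9 in GFP cells and 718.6, 474.2 and 457.7 in GRK3 cells. Both probes were high on GFP replicate 3 and on GRK3 replicate 1, and the groups overlap. After normalization the highest GFP array exceeded the lowest 1.75-fold at the first probe and 1.24-fold at the second, and within the GRK3 group the factors were 1.70 and 1.71.

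The difference of IGFBP3 was -0.15 ± 0.23 (SE) at the first probe, with a 95% interval from -0.67 to 0.38, and -0.15 ± 0.18 at the second, with an interval from -0.56 to 0.26 (limma adjusted p = 0.877 and 0.829). A difference between the groups was thus not detectable, and the intervals leave room for changes of moderate size either way. The sign at the first probe rested on single arrays: the difference was 0.10 with GFP replicate 3 left out and 0.01 with GRK3 replicate 2 left out. With GRK3 replicate 1 left out the difference at this probe was -0.37. Its within-group SD of 0.42 was larger than that of 99.4% of tested probes, and larger than that of 99.3% of the 1000 probes nearest to it in level. For the second probe the SD was 0.31 and the shares were 97% and 97.8%.

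**Figure D3:**
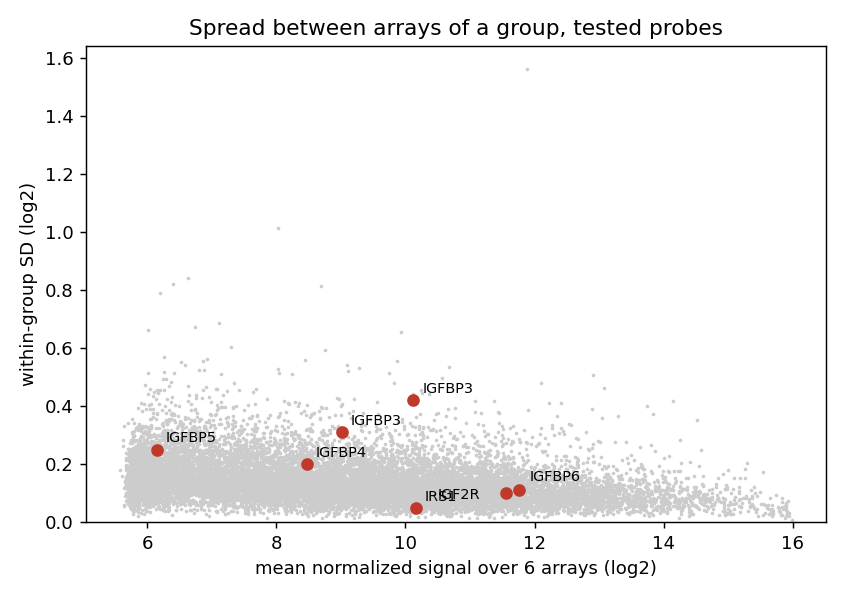
Within-group SD of the log2 values (y axis) against the mean log2 value over 6 arrays (x axis) for all tested probes (grey) and the 7 tested member probes (red). The 2 IGFBP3 probes, at 0.42 and 0.31, lie near the top of the cloud at their level, and IRS1, at 0.05, lies near the bottom.

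The arrays on which IGFBP3 was high also moved together at other probes. Over all tested probes, the deviations of GFP replicate 3 and of GRK3 replicate 1 from their group means had a correlation of 0.51, and those of GFP replicate 1 and GRK3 replicate 3 one of 0.43. These 2 were the highest such correlations between a GFP and a GRK3 array, and the rest ran from -0.41 to 0.18. Deviations sum to 0 within a group, so the correlations are linked. They are taken across probes that share arrays and normalization, and their part in the IGFBP3 values was not tested. By mean absolute distance of centred log2 values over the 6 arrays, the named genes nearest to the first IGFBP3 probe were SLC22A4 at 0.06, DNAJC30 at 0.08 and PCLAF at 0.09. The 2 IGFBP3 probes were 0.10 apart, and 0.0354% of tested probes were closer to the first probe than the second was. PCLAF, a PCNA-binding factor of replicating cells, read 8.16, 8.35 and 9.03 in GFP cells and 8.83, 8.17 and 8.31 in GRK3 cells. SLC22A4, DNAJC30 and PCLAF were picked for likeness on these same 6 arrays, so their shared pattern is not a separate finding.

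**Figure D4:**
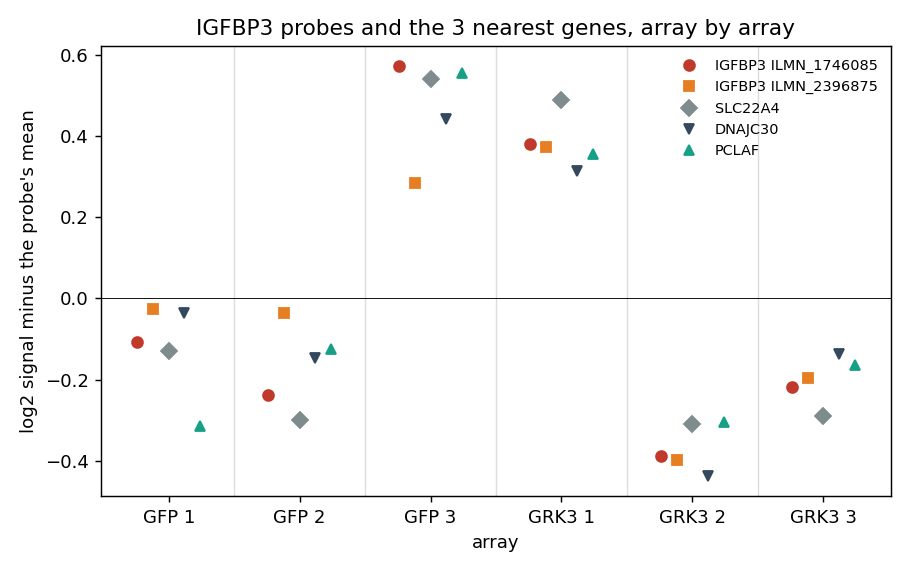
Log2 signal minus the probe's own mean (y axis) on each array (x axis) for the 2 IGFBP3 probes and for SLC22A4, DNAJC30 and PCLAF, the 3 named genes nearest to the first IGFBP3 probe. All 5 probes are above their mean on GFP replicate 3 and GRK3 replicate 1 and below it on the other 4 arrays. The 3 genes were picked for likeness on these same arrays, so their shared pattern follows from the choice.

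For IGFBP5 the nearest named genes by the same measure were ACKR2, which encodes a scavenging chemokine receptor, MUCL1, which encodes a small mucin, and COL5A2, a chain of collagen V, each at 0.09. COL5A2 read 7.68, 7.74 and 7.45 in GFP cells and 8.36, 8.98 and 8.83 in GRK3 cells. In ACKR2, MUCL1 and COL5A2, as in IGFBP5, GRK3 replicate 1 was the lowest GRK3 array. It read 7.62 against 8.13 and 8.10 in ACKR2 and 6.93 against 7.01 and 7.31 in MUCL1. These genes were picked for their likeness to a probe that differs between the groups, so their differences are not separate findings.

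IGFBP4, which encodes a binding protein that restrains IGF action and is cleaved by pappalysin-1, was detected on all arrays. Its signal was 372.7, 416.1 and 391.3 in GFP cells and 445.2, 397.4 and 465.1 in GRK3 cells. GRK3 replicates 1 and 3 lay above every GFP array and GRK3 replicate 2 lay among them. The log2 means were 8.35 ± 0.10 and 8.60 ± 0.27 (SD, n = 3 each), a difference of 0.24 ± 0.13 (SE) with a 95% interval from -0.06 to 0.54 (limma adjusted p = 0.543). Single arrays moved it: it was 0.12 with GRK3 replicate 3 left out and 0.39 with GRK3 replicate 2 left out.

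IGFBP6, which encodes a binding protein that prefers IGF2 over IGF1, was detected on every array. Its signal was 3510.4, 3740 and 3799.2 in GFP cells and 3877.5, 3334.5 and 2986.7 in GRK3 cells, with overlapping groups. The normalized difference was -0.09 ± 0.10 (SE), with a 95% interval from -0.31 to 0.14 (limma adjusted p = 0.819), and with 1 array left out it ran from -0.16 to -0.03. IGFBP7, a matrix-associated relative that binds IGFs weakly, had signals from 56.9 to 69.6 and detection p-values from 0.492 to 0.806. It was not above background on any array, so there is no fold to give.

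Of the receptors, IGF2R was read and IGF1R was not. The IGF2R signal was 2827.1, 3104.2 and 3452 in GFP cells and 2946.5, 3649.2 and 2596.6 in GRK3 cells. The GRK3 arrays held both the highest and the lowest value. The log2 difference was 0.01 ± 0.10 (SE), with a 95% interval from -0.21 to 0.23 (limma adjusted p = 0.978). IGF1R had signals of 77.1, 75.7 and 78.4 in GFP cells and 80.3, 81.4 and 68.2 in GRK3 cells, with detection p-values from 0.172 to 0.398. At this 1 probe IGF1R was not above background on any array, which bounds the probe's signal and does not show that the receptor RNA is absent.

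IRS1 was detected on all arrays and was the steadiest of the tested members. Its signal was 1201.9, 1320.5 and 1287.8 in GFP cells and 1138.2, 1225.3 and 1054.5 in GRK3 cells. The normalized values were 10.25, 10.25 and 10.13 in GFP cells and 10.09, 10.11 and 10.14 in GRK3 cells, and the highest GRK3 array lay just above the lowest GFP array. The difference was -0.10 ± 0.09 (SE), with a 95% interval from -0.29 to 0.10 (limma adjusted p = 0.744). Its within-group SD of 0.05 was larger than that of 5.12% of tested probes.

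The wider IGF pathway was described with 6 lists of 60 genes, of which 56 had a named probe and 37 were tested. Of these 37, 1 was higher, 0 were lower and 36 did not pass, and their median difference was -0.02. The groups did not overlap for 7 of the 37, close to the 16.4% of all tested probes. These 7 were GRB14, AKT1, HTRA1, PRSS23, CCN2, CCN3 and ESM1, with differences in both directions. ESM1 entered the fit only through the GFP group, where it is high. Of all tested probes, 0.573% passed in either direction. The ligand genes IGF1, IGF2 and INS were detected on 0 arrays at the probe used for each, so no ligand RNA was measured there. IGF2 had 2 probes, and the count is for the brighter.

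Of 9 tested receptor relatives and adaptors, 0 passed with limma, and the differences ran from -0.21 to 0.03. INSR, the insulin receptor gene, differed by -0.06 ± 0.11 (SE). IRS2, the relative of IRS1, differed by -0.10 ± 0.12 (SE). GRB14, an adaptor that inhibits insulin receptor signalling, had the list's largest difference, -0.21 ± 0.09 (SE), with groups that do not overlap and a limma adjusted p of 0.385. SOS1, the exchange factor that activates RAS, differed by -0.17, and SH2B2, an adaptor of the insulin receptor, by -0.13 (limma adjusted p = 0.613 and 0.777). Of 13 tested genes of PI3K, AKT and FOXO signalling, 0 passed. Their largest differences were -0.26 for AKT2, 0.22 for FOXO4 and -0.13 for AKT1 at its brightest probe. The limma adjusted p-values were 0.631, 0.632 and 0.673. These sizes rested on single arrays: with 1 array left out AKT2 ran from -0.39 (GFP replicate 3) to -0.08 (GRK3 replicate 1), FOXO4 from 0.08 (GRK3 replicate 3) to 0.35 (GRK3 replicate 1) and AKT1 from -0.17 to -0.06. In the same runs SOS1 went from -0.24 to -0.08 and SH2B2 from -0.27 to -0.05. At its other tested probes AKT1 differed by 0.005 and -0.08 (limma adjusted p = 0.993 and 0.905).

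Among IGFBP proteases and their regulators 6 of 13 were tested and 0 passed. HTRA1, a secreted serine protease with an IGFBP domain that can cleave IGFBP5, read 10.45, 10.48 and 10.44 in GFP cells and 10.85, 10.81 and 10.77 in GRK3 cells. The 3 GRK3 arrays lay above the 3 GFP arrays, with a difference of 0.36 ± 0.08 (SE) and a limma adjusted p of 0.113. The limma adjusted p of HTRA1 stayed above the threshold in 16 of 16 alternatives, from 0.0608 to 0.365. PRSS23, a secreted serine protease, also differed by 0.36, between groups that do not overlap (limma adjusted p = 0.189). CTSD, which encodes cathepsin D, differed by 0.28 (limma adjusted p = 0.439). With 1 array left out CTSD ran from 0.16 to 0.37. PAPPA and PAPPA2 encode the pappalysins, which both cleave IGFBP5, and IGFALS encodes the acid-labile subunit of the circulating IGF complex. These genes were detected on 0 arrays at the probe used for each.

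Of 6 tested genes for other proteins with an IGFBP domain, CCN2, which encodes connective tissue growth factor, was the 1 that passed. It read 10.68, 10.86 and 10.65 in GFP cells and 11.44, 11.72 and 11.50 in GRK3 cells, a difference of 0.82 ± 0.11 (SE) with a limma adjusted p of 0.0102. That call ended without GFP replicate 1, GFP replicate 3 or GRK3 replicate 2, at limma adjusted p-values of 0.0565, 0.0508 and 0.0603, and the alternatives tried ranged from 0.0013 to 0.0654. The other tested CCN genes had differences below 0, -0.36 for CCN1 and -0.27 for CCN3 (limma adjusted p = 0.406 and 0.255). The groups overlap for CCN1 and do not for CCN3. ESM1, which encodes endocan and was picked out after its values were seen, read 6.04, 6.30 and 7.26 in GFP cells and 5.88, 5.36 and 5.23 in GRK3 cells. It was detected on 3 GFP arrays and 1 GRK3 array, so the GRK3 level is close to a floor and no size is given. Its limma adjusted p was 0.168, and from 0.0604 to 0.422 over the alternatives. ESM1 met the detection filter of the main fit only through the GFP group, where it is high, so these values are descriptions. IGF2BP1, IGF2BP2 and IGF2BP3, which bind IGF2 mRNA, differed by -0.13, -0.12 and -0.06, and 0 of the 3 passed.

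**Figure D5:**
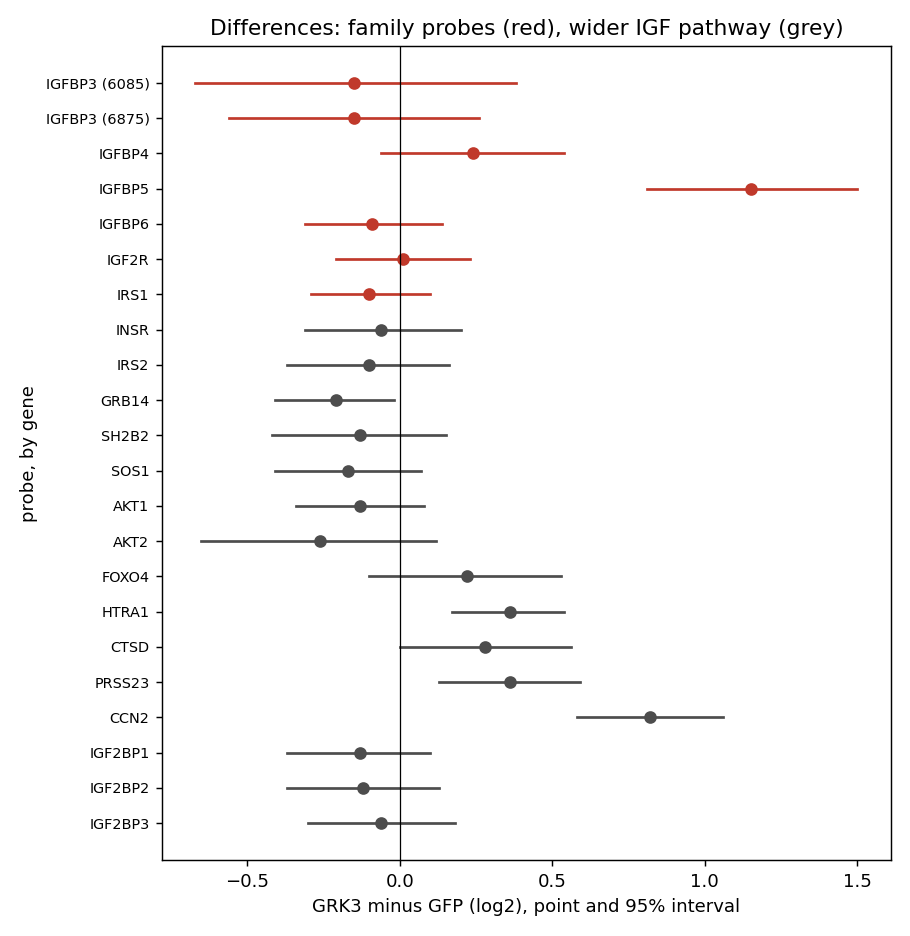
GRK3 minus GFP difference on the log2 scale (points, x axis) with its 95% interval from limma (lines) for the 7 tested member probes (red, IGFBP3 with the last digits of its probe) and for named genes of the wider pathway (grey). IGFBP5 at 1.15 and CCN2 at 0.82 lie to the right, while most other intervals include 0. CCN1 at -0.36 and CCN3 at -0.27 are not drawn, and neither is ESM1, whose GRK3 level is close to a floor.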

How the data were processed

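The deposited table gives, per the file headers, a non-normalized average bead intensity and a detection p-value for each probe on each array. Its software is not given in the sources used. The authors' value table holds intensity equal to the first table's columns times 1 factor per array, from 0.931 to 1.10. Its columns have a mean of 1291.94 and medians from 131.6 to 140.7, and it served as an alternative. The deposited detection p-value columns were used as given. Symbols came from the platform annotation, where 21834 probes have 1 gene symbol, 0 several and 2692 none.

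Signals were background-corrected from the detection p-values (offset 16), quantile-normalized and put on the log2 scale with the nec and normalizeBetweenArrays functions of limma 3.58.1 in R 4.3.3. Probes detected on at least 3 of 6 arrays, 14130 in all, were compared by lmFit and eBayes, two-sided, with Benjamini-Hochberg adjustment over all of them and no covariate. The threshold was an adjusted p under 0.05. The fit was tested on simulated data. A wider-list or marker gene was represented by its tested probe with the highest mean. Where none was tested, its probe with the highest mean was used, and detection counts refer to the probe used. Precision is limited by the number of arrays.

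The members and lists were chosen with earlier results of these data known. Named from the wider lists were genes that passed, or in a list with none up to 3 with the largest differences, plus IGF1, IGF2, INSR and IRS2; 1 further gene is not reported here. INS, PAPPA, PAPPA2, IGFALS, CCN1, CCN3 and ESM1 were named after their values were seen. Likeness was sought for IGFBP5 and IGFBP3, 3 genes each. Alternatives were other background, offset, scaling, table, filters, trend, array weights, the replicate block and each array left out.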

Additional observations from a re-analysis of the deposited data

How the results depend on the processing

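The count of 81 probes passing over the whole table (53 higher, 28 lower) was 134 without background correction, 122 with an offset of 50, 136 with an intensity trend, 239 with array weights and 23 with no detection filter. With the authors' value table it was 112, split into 57 higher and 55 lower. With 1 array left out it ran from 23 to 183, the highest without GRK3 replicate 1. With the replicate number as a block it was 11. Over tested probes GRK3 replicate 1 had a mean correlation of 0.9941 with its own group and 0.9941 with the GFP group. The other arrays correlated more closely with their own group. The same-numbered arrays had correlations of deviations of -0.41, 0.18 and -0.41, and 2 of 6 arrays correlated best with their own number, so the numbers are not taken to pair the samples. Under this replicate block IGFBP5 had a limma adjusted p of 0.118 and CCN2 one of 0.0654. IGFBP5 kept a positive difference in 15 of 15 alternatives, from 0.76 to 1.35, and passed in 10. With no detection filter its limma adjusted p was 0.0758, and with probes detected on all 6 arrays it was not tested. The other 6 member probes passed in 0 of 16 alternatives. Some differences that did not pass turned sign. With 1 array left out IGFBP3 ran from -0.37 (GRK3 replicate 1) to 0.10 (GFP replicate 3) at the first probe and to 0.01 (GRK3 replicate 2) at the second. IGF2R ran from -0.07 (GRK3 replicate 2) to 0.05 and INSR from -0.12 to 0.04 (GFP replicate 1). IGF2R was -0.02 with the authors' value table. The cause of these shifts was not tested. Signal over background limits IGFBP2, IGFBP7 and IGF1R, which were not read, and the GFP level of IGFBP5.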
